A study of Mus musculus with 28 samples.

Results

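The 9 genes described here encode transcription factors used to define microglia and tissue macrophages: Sall1, Sall3, Mef2a, Mef2c, Maf, Irf8, Spi1, Runx1 and Cebpb. They were taken by symbol from a deposited table of 14617 genes, and 9 of 9 were present and among the 12327 genes tested. The counts come from MARS-seq, a 3′ method that counts unique molecular identifiers (UMIs), on 28 libraries of cells sorted from irradiated marrow chimeras. Hosts in all 8 groups were Cx3cr1 gfp/+ mice, in which gfp replaces 1 copy of Cx3cr1, and all were lethally irradiated before transplantation. The mutant groups received Vav-Cre: hDNMT3A fl/fl marrow, in which Cre acts in blood-forming cells, and the control groups received hDNMT3A fl/fl marrow with no Cre, so donor cells of both genotypes carry the floxed human allele and host cells do not carry the marrow genotype. At 16 weeks after transplantation, GFP-negative donor cells and GFP-positive host cells were sorted from the brain parenchyma, where the labels call both microglia, and from the leptomeninges. Donor leptomeningeal macrophages, donor microglia and host microglia had 4 libraries per genotype, and 2 libraries of host leptomeningeal macrophages were made for each. Whether each library came from its own animal is not stated, and the tests therefore rest on the spread among libraries, which may be technical.

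Microglia arise from yolk-sac progenitors and maintain themselves in the brain, whereas marrow-derived macrophages enter an irradiated brain from the blood. Spi1 encodes PU.1, the ETS-family factor that every macrophage needs, and IRF8, RUNX1, C/EBP and MEF2 proteins act with it at macrophage enhancers. SALL1 is, among mouse brain macrophages, characteristic of microglia, its expression depends on TGF-beta signalling through SMAD proteins, and its loss shifts microglia towards an inflammatory state. Maf encodes c-MAF, a bZIP factor that restrains proliferation of mature macrophages and is also known from macrophages at the borders of tissues.

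Promoter sequence was looked up for the members in a RefSeq table on GRCm38.p6 (the mm10 assembly), and 6 of 9 matched. The 250 bases before the gene start are shown for the 4 members that illustrate the patterns below: Sall1, which had the widest range between populations, Mef2a and Irf8, whose group means had a correlation of 0.96, and Cebpb, which was highest in donor microglia. The positions are chr8:89044163-89044412 (minus strand) for Sall1, chr7:67372859-67373108 (minus strand) for Mef2a, chr8:120736108-120736357 (plus strand) for Irf8 and chr2:167688665-167688914 (plus strand) for Cebpb. Capitals mark the letters GAGGAAG, a form bound by PU.1, and all other bases are in lower case.
Sall1: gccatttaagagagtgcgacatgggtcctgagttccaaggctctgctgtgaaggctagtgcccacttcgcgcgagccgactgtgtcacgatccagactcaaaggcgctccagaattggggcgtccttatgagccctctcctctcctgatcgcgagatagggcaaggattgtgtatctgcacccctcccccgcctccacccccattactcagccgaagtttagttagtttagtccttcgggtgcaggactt
Mef2a: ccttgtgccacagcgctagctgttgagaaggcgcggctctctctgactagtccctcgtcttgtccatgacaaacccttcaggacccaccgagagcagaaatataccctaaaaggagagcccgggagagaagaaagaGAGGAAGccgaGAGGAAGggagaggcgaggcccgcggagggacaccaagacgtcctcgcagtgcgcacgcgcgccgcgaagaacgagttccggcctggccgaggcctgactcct
Irf8: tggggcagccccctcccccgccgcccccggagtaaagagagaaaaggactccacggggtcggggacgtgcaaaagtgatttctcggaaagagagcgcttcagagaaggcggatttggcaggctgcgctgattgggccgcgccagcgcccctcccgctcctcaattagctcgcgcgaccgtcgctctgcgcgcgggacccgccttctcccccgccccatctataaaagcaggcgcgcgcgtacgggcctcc
Cebpb: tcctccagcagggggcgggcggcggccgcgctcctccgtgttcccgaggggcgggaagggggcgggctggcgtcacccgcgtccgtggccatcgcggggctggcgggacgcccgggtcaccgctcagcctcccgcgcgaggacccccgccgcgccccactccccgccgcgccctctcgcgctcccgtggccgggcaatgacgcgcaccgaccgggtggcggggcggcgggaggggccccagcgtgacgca
Both strands were searched for GAGGAAG, the MEF2 core TAAAAATA, the RUNX form TGTGGT, the C/EBP form TTGCNNAA, the MAF form TGCTGAC and the SMAD form GTCTAGAC. None of these forms contains another. Only the first listed window of each member was searched. Mef2a and Cebpb had 1 window, Irf8 and Runx1 had 2, and Sall1 and Mef2c had 3. The Mef2a window held GAGGAAG 2 times. No listed form occurred in the window searched for Sall1, Irf8 or Cebpb, nor in that for Mef2c or Runx1. Among 32851 promoter windows of the same length, 10.6% held GAGGAAG, 14% TGTGGT, 9.56% TTGCNNAA, 3.81% TGCTGAC, 2.45% TAAAAATA and 0.167% GTCTAGAC. These letters are descriptions of the windows and were not related to the values.

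Library totals ran from 479077 to 3066506 UMIs, lowest in donor microglia (median 651040). Levels are CPM, a gene's UMIs per 1000000 UMIs of the library, and they are compared within a gene, not between genes. The sum of 10 microglial markers, which holds no member, took 0.132% to 0.251% of UMIs in donor leptomeningeal macrophages, 0.763% to 0.942% in donor microglia, 0.620% to 1.10% in host leptomeningeal macrophages and 3.06% to 3.70% in host microglia, with 10 of 10 markers above 0 in each population. The sum of 10 border macrophage markers such as Mrc1 took 0.280% to 0.522%, 0.117% to 0.169%, 0.982% to 1.36% and 0.00795% to 0.0119% in the same order. Donor microglia thus carried the microglial label at a lower marker level than host microglia. Astrocyte markers (8 of 8 above 0) took 0.0645% to 0.332% of UMIs in donor microglia and at most 0.0213% in any library of the other populations. Neuron markers (7 of 7 above 0) took 0.0259% to 0.135% in donor microglia and at most 0.00689% elsewhere. Oligodendrocyte markers (4 of 4 above 0) took 0.0641% to 0.428% in donor microglia and at most 0.0214% elsewhere. Neutrophil markers (12 of 12 above 0) took 3.69% to 9.79% in donor leptomeningeal macrophages and at most 0.988% elsewhere. Dnmt3a averaged 67.5 ± 7.41 CPM in mutant donor microglia and 70.8 ± 16.9 CPM in control donor microglia (SD, n = 4 each), and gene-level 3′ counts do not show whether the floxed allele was recombined.

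The question of the population comparisons was how far donor cells carry the factor set of the host cells of the same place, and how that set differs between leptomeninges and parenchyma. SALL factors separated the populations far more widely than the rest: Sall1 was 17.7 times and Sall3 18.03 times lower in donor microglia than in host microglia. Mef2a, Mef2c, Maf, Irf8, Spi1 and Runx1 were 1.41 to 1.66 times lower there, and Cebpb was 1.48 times higher. In edgeR's quasi-likelihood test with TMM scaling, adjusted by Benjamini-Hochberg over all 12327 genes, 8 of 9 members were lower in donor than in host microglia and 1 was higher, against 27.3% of all genes lower and 33.1% higher, or 60.4% called. The median log2 change of the members was -0.59 and that of all genes 0.04. Fewer cells of a type in a sorted pool and less RNA per cell cannot be told apart in these bulk libraries.

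**Figure D1:**
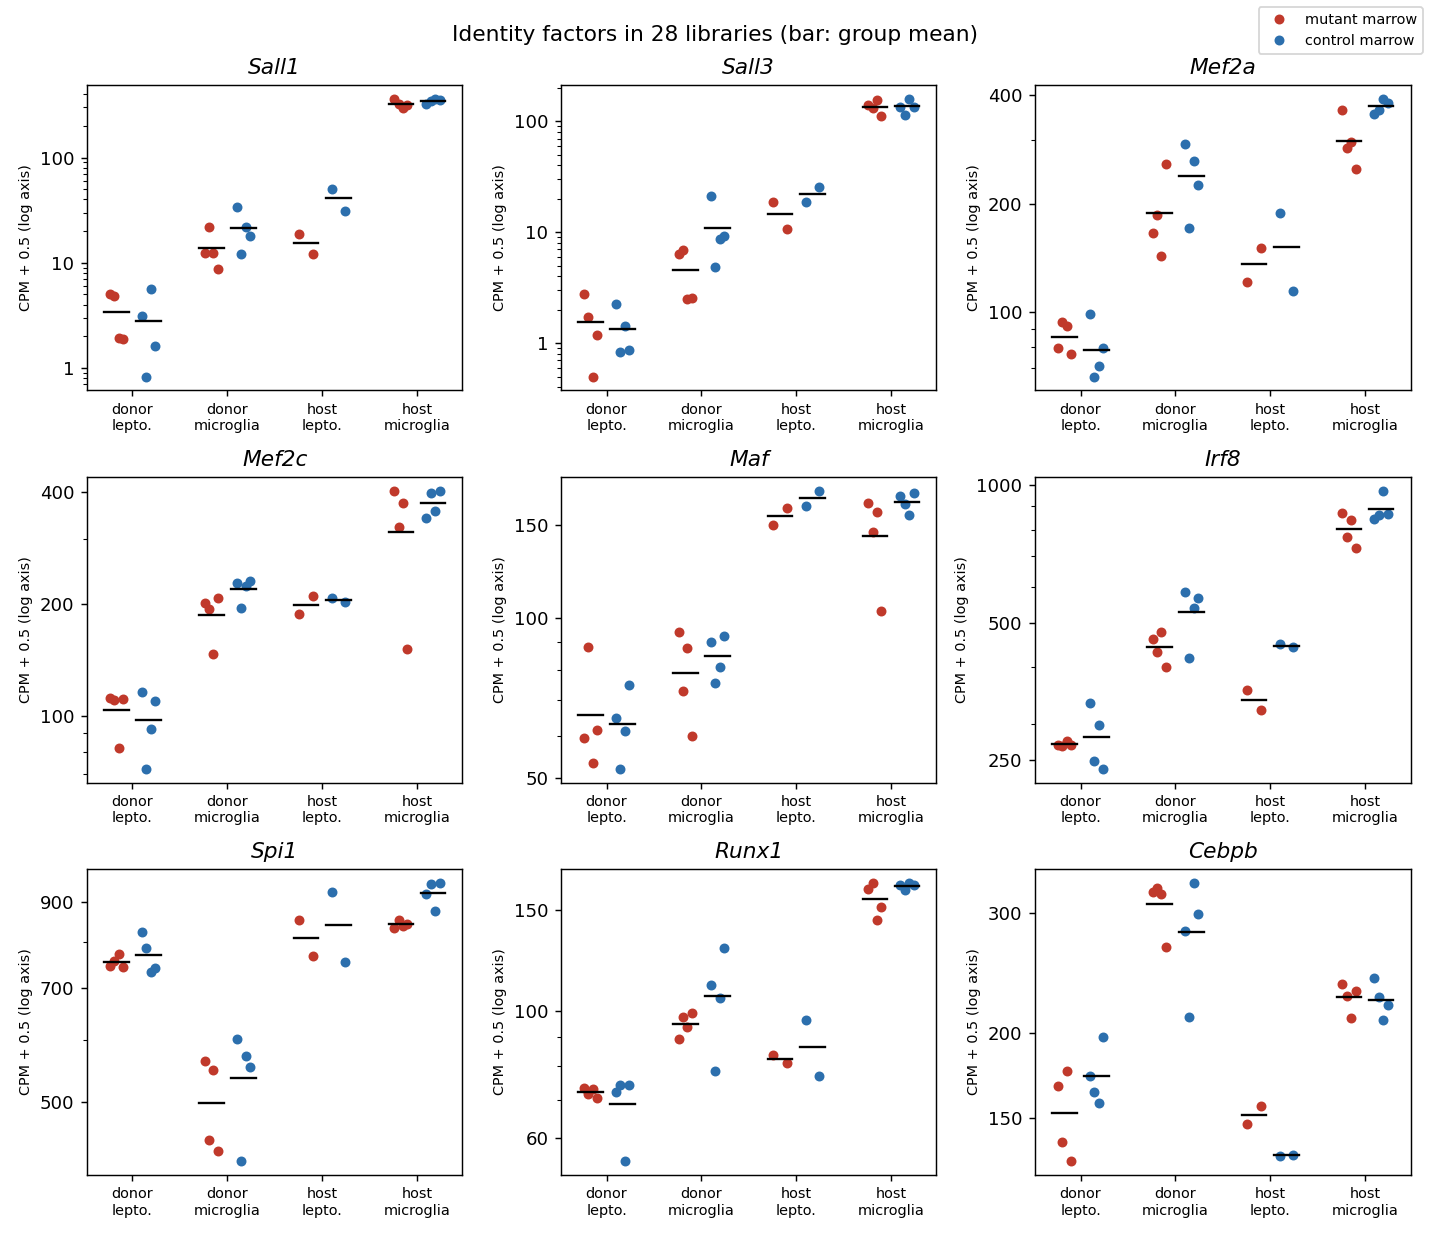
CPM + 0.5 (log axis) of each of the 9 factors in 28 libraries, with mutant chimeras in red left of control chimeras in blue and a bar at each group mean, for donor and host cells of leptomeninges (lepto.) and parenchyma. Sall1 spans 0.326 to 361.3 CPM over the populations, whereas Spi1 spans 420.3 to 950.6 CPM.

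Donor leptomeningeal macrophages were lower than host leptomeningeal macrophages in 6 of 9 members and higher in 1, against 13.3% of all genes lower and 16.9% higher, or 30.2% called. Donor leptomeningeal macrophages were lower than donor microglia in 7 and higher in 1, against 31.6% and 30.5% of all genes, or 62.1% called. Host leptomeningeal macrophages were lower than host microglia in 7 and higher in 1, against 25.7% and 31.1%, or 56.7% called. The medians of the members were -0.59, -0.62 and -0.75 in these comparisons, and those of all genes 0.01, -0.03 and 0.08. The comparisons share libraries and are not independent of each other. In unscaled CPM, the libraries of donor and host microglia did not overlap for 6 of 9 members, against 28.6% of all genes. The same count was 6 in donor against host leptomeningeal macrophages (23.5% of all genes), 7 in leptomeningeal against parenchymal donor cells (25.6%) and 6 in leptomeningeal against parenchymal host cells (42.4%). The first of these counts includes Runx1, which was not called with TMM scaling. With neutrophil markers as a covariate, 2 members stayed past the threshold in donor against host leptomeningeal macrophages and 2 in leptomeningeal against parenchymal donor cells, where 287 and 1235 of all 12327 genes did. With astrocyte and neuron markers 5 members and 962 genes did in the second of these. These covariates widened the errors, and values moved to unlike degrees. For leptomeningeal against parenchymal donor cells, Irf8 was -0.56 ± 0.26 with the neutrophil covariate and -0.57 ± 0.08 without it. Runx1 was -0.72 ± 0.30 with it and -0.26 ± 0.09 without it. Mef2c turned in sign with it, to 0.03 ± 0.41. Sall3 (-1.59 ± 0.79), Mef2a (-0.96 ± 0.38) and Spi1 (0.55 ± 0.25) lay nearer to no change with it than without it. TMM scaling set donor leptomeningeal libraries to 0.834 to 0.898 of their totals and host microglia libraries to 1.07 to 1.21. With library totals alone the median of all genes shifted by -0.18 for donor minus host microglia, -0.23 for donor minus host leptomeningeal macrophages, -0.24 for leptomeningeal minus parenchymal donor cells and -0.18 for leptomeningeal minus parenchymal host cells. The share of calls that were higher was then 44.0% against 54.8% with TMM for donor minus host microglia, 29.9% against 56.0% for donor minus host leptomeningeal macrophages, 34.6% against 49.1% for leptomeningeal minus parenchymal donor cells and 43.9% against 54.8% for host cells.

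**Figure D2:**
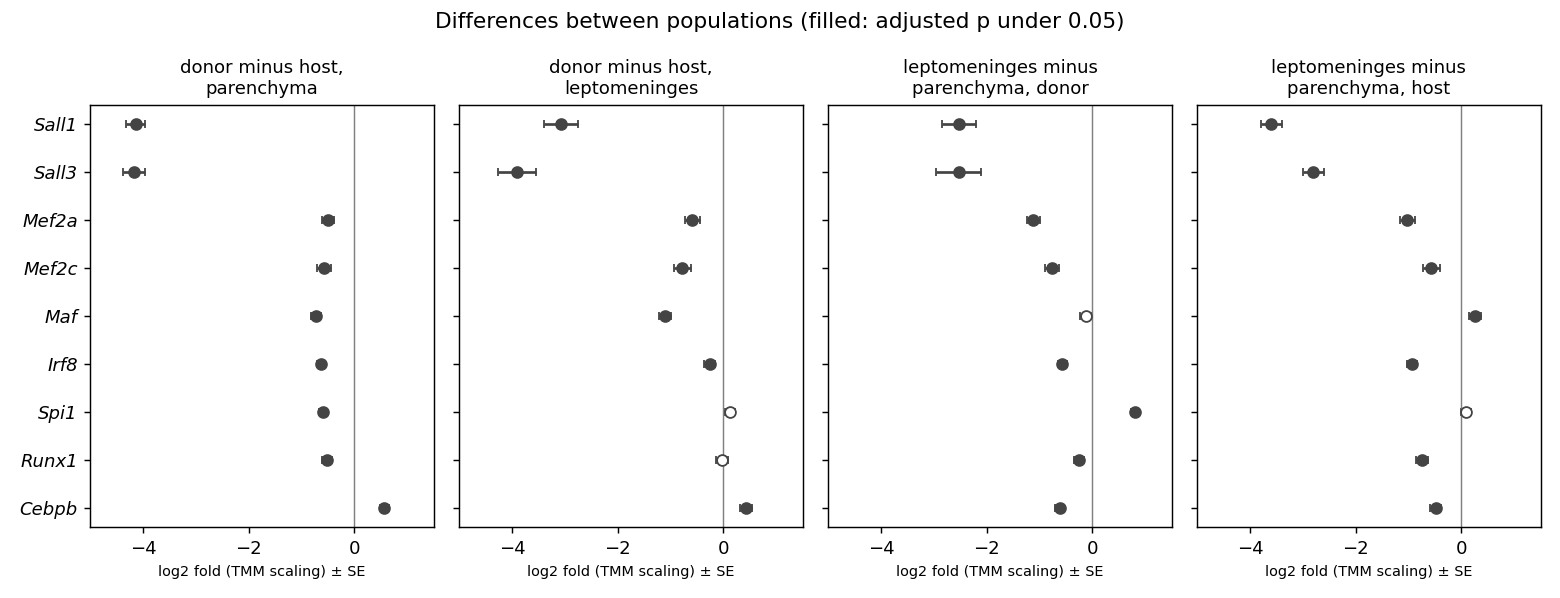
Log2 fold ± SE (TMM scaling) of each factor for donor minus host cells of each compartment and for leptomeninges minus parenchyma in each origin, with filled points for an adjusted p under 0.05. Sall1 and Sall3 lie at -2.53 or lower in all 4 panels, and no other factor lies below -1.12.

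Sall1 encodes the zinc-finger factor characteristic of microglia, and lies on mm10 chromosome 8, 89027235 to 89044162, minus strand. Its lowest, median and highest levels were 0.326, 2.04 and 5.09 CPM in the 8 donor leptomeningeal libraries, where they rest on 1 to 11 UMIs per library. They were 8.21, 14.6 and 33.4 CPM in the 8 donor microglia libraries and 298.3, 333.0 and 361.3 CPM in the 8 host microglia libraries. The 4 host leptomeningeal libraries had 18.1 and 11.5 CPM in mutant chimeras and 49.9 and 30.8 CPM in control chimeras. Thus no library of another population came near host microglia, donor leptomeningeal macrophages lay below all others, and donor microglia overlapped with host leptomeningeal macrophages. The log2 change was -4.14 ± 0.18 (SE) for donor minus host microglia (adjusted p = 1.6e-19, edgeR) and -3.60 ± 0.20 for leptomeningeal minus parenchymal host cells (adjusted p = 2.94e-16). It was -3.08 ± 0.33 for donor minus host leptomeningeal macrophages (adjusted p = 5.54e-09) and -2.53 ± 0.32 for leptomeningeal minus parenchymal donor cells (adjusted p = 3.07e-08). The neighbours in the order of levels, donor microglia and host leptomeningeal macrophages, differed by -0.55 ± 0.28 with an adjusted p of 0.116. Without mutant donor microglia library 2 that difference was -0.70 and past the threshold (adjusted p = 0.0479).

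Sall3, a close relative of Sall1 on chromosome 18 (80966376 to 80986771, minus strand), followed the same order. Donor leptomeningeal macrophages had 5, 2, 0 and 2 UMIs in mutant and 4, 1, 2 and 1 UMIs in control libraries, and the library with 0 UMIs could still have held up to 1.44 CPM, the level of 3 UMIs, by counting error alone. The lowest, median and highest levels were 1.99, 6.16 and 20.9 CPM in donor microglia (1 to 10 UMIs) and 110.5, 134.7 and 159.1 CPM in host microglia. The host leptomeningeal libraries had 18.1 and 10.2 CPM in mutant chimeras and 18.2 and 25.1 CPM in control chimeras. Host microglia stood clear of the other populations, while 1 donor microglia library reached the host leptomeningeal range. The log2 change was -4.17 ± 0.20 for donor minus host microglia (adjusted p = 1.47e-21) and -2.80 ± 0.20 for leptomeningeal minus parenchymal host cells (adjusted p = 5.96e-16). Donor microglia and host leptomeningeal macrophages differed in Sall3 by -1.37 ± 0.32 (adjusted p = 0.000499), which turned to 1.16 ± 1.18 (adjusted p = 0.647) with astrocyte and neuron markers as a covariate. The change in leptomeningeal against parenchymal donor cells, -2.53 ± 0.43 (adjusted p = 2.26e-06), was -1.59 ± 0.79 and not called with the neutrophil covariate (adjusted p = 0.205).

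The astrocyte and neuron marker level entered as a covariate ended most calls between donor and host microglia, whose marker levels do not overlap. With it, Sall1 was -2.21 ± 0.97 (adjusted p = 0.154), Sall3 -1.53 ± 1.298 (adjusted p = 0.537), and 1 member (Cebpb, 1.31 ± 0.31) stayed past the threshold. SALL levels per unit of microglial marker also differed in description: 1% of marker UMIs came with a median of 10.7 CPM of Sall1 in donor leptomeningeal macrophages (2.37 to 26.3), 17.2 in donor microglia (9.27 to 35.4), 32.5 in host leptomeningeal macrophages (18.6 to 45.3) and 97.2 in host microglia (88.1 to 103.5). For Sall3 these medians were 4.08, 7.01, 22.1 and 37.6 CPM. Host microglia therefore had more Sall1 per microglial marker than any library of the other populations. The part of other cell types in these values was not tested.

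**Figure D3:**
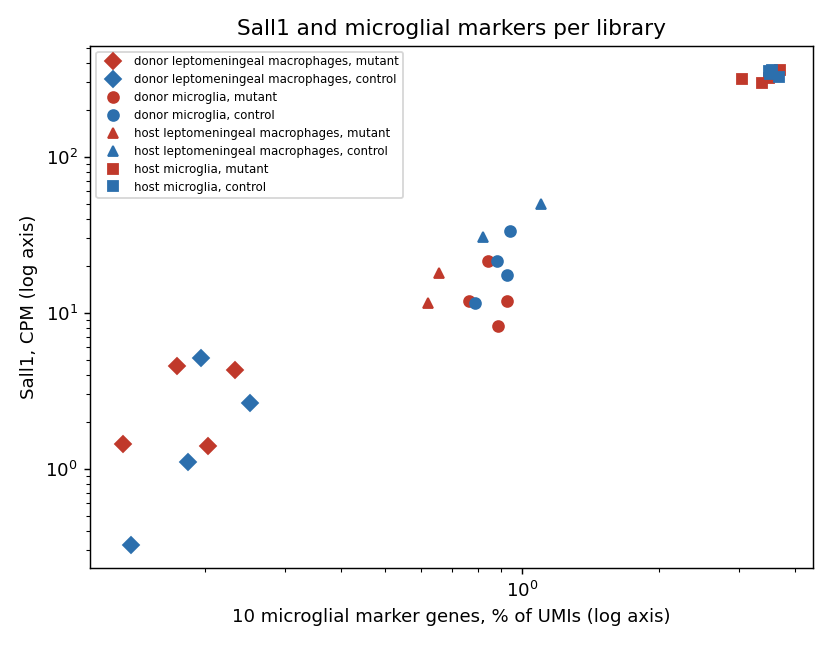
Sall1 in CPM against the summed share of 10 microglial markers in % of UMIs (both axes log) in each of 28 libraries, by population and marrow genotype. Donor microglia lie at 8.21 to 33.4 CPM and 0.763% to 0.942%, and host microglia at 298.3 to 361.3 CPM and 3.06% to 3.70%.

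The MEF2 factors, MADS-box proteins whose binding motif is frequent at microglial enhancers, were highest in host microglia. Mef2a (chromosome 7, 67231163 to 67372858, minus strand) had a lowest, median and highest level of 65.9, 79.0 and 98.2 CPM in donor leptomeningeal macrophages, 143.1, 205.5 and 292.2 CPM in donor microglia and 249.1, 358.7 and 390.2 CPM in host microglia. In host leptomeningeal macrophages the levels were 120.5 and 150.5 CPM in mutant and 188.6 and 113.9 CPM in control chimeras. Donor leptomeningeal libraries lay below every other library, and donor and host microglia overlapped. Mef2a changed by -0.50 ± 0.11 in donor against host microglia (adjusted p = 0.000207), by -1.12 ± 0.12 in leptomeningeal against parenchymal donor cells (adjusted p = 2.08e-10) and by -1.02 ± 0.14 in leptomeningeal against parenchymal host cells (adjusted p = 9.25e-08), all on the log2 scale. Its change between donor and host leptomeningeal macrophages, -0.59 ± 0.14 (adjusted p = 0.001), was -0.39 and lost the call without control host leptomeningeal library 1. Donor microglia exceeded host leptomeningeal macrophages by 0.53 ± 0.14 (adjusted p = 0.00304). With astrocyte and neuron markers as a covariate the change in donor against host microglia turned to 0.59 ± 0.37 (adjusted p = 0.361). With the neutrophil covariate the call was lost in donor against host leptomeningeal macrophages (-0.46 ± 0.33, adjusted p = 0.633) and in leptomeningeal against parenchymal donor cells (-0.96 ± 0.38, adjusted p = 0.104).

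Mef2c, which restrains inflammatory responses of mouse microglia, lies on chromosome 13 (83504034 to 83667080, plus strand). Its lowest, median and highest levels were 71.7, 109.6 and 115.4 CPM in donor leptomeningeal macrophages, 146.0, 204.2 and 230.6 CPM in donor microglia and 151.4, 364.3 and 402.3 CPM in host microglia. Levels in host leptomeningeal macrophages were 187.7 and 210.2 CPM in mutant and 206.8 and 201.6 CPM in control chimeras. The lowest host microglia library, mutant library 4, stood inside the range of donor microglia, and the other 7 stood above it. Mef2c differed by -0.58 ± 0.13 between donor and host microglia (adjusted p = 0.000332) and by -0.78 ± 0.16 between donor and host leptomeningeal macrophages (adjusted p = 0.000251). Leptomeningeal minus parenchymal cells gave -0.77 ± 0.14 in donor cells (adjusted p = 1.42e-05) and -0.57 ± 0.16 in host cells (adjusted p = 0.00301). Donor microglia and host leptomeningeal macrophages did not differ past the threshold (-0.01 ± 0.16, adjusted p = 0.974). With neutrophil markers as a covariate none of these Mef2c calls held. The change was then -0.30 ± 0.18 in donor against host microglia (adjusted p = 0.166), -0.09 ± 0.37 in donor against host leptomeningeal macrophages (adjusted p = 0.966), 0.03 ± 0.41 in leptomeningeal against parenchymal donor cells (adjusted p = 0.982) and -0.18 ± 0.24 in leptomeningeal against parenchymal host cells (adjusted p = 0.5683). For astrocyte and neuron markers it was -0.29 ± 0.53 in donor against host microglia (adjusted p = 0.815) and -1.09 ± 0.58 in leptomeningeal against parenchymal donor cells (adjusted p = 0.299). The change in leptomeningeal against parenchymal host cells was also not called, at -0.57, when those groups were fitted alone (adjusted p = 0.0565).

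Maf (chromosome 8, 115682942 to 115707794, minus strand) was lower in donor than in host cells of both compartments. Its lowest, median and highest levels were 51.5, 60.8 and 87.7 CPM in donor leptomeningeal macrophages, 59.5, 83.9 and 93.7 CPM in donor microglia and 102.6, 160.5 and 171.9 CPM in host microglia. The host leptomeningeal libraries had 149.6 and 160.7 CPM in mutant and 162.4 and 173.1 CPM in control chimeras. All host libraries were above all donor libraries of either compartment in CPM, although with TMM scaling donor leptomeningeal macrophages overlapped with host microglia. Maf changed by -0.73 ± 0.10 in donor against host microglia (adjusted p = 3.76e-08) and in donor against host leptomeningeal macrophages by -1.11 ± 0.11 (adjusted p = 6.79e-11). The donor populations did not differ past the threshold with TMM scaling (-0.13 ± 0.11, adjusted p = 0.319), whereas with library totals Maf was lower in leptomeningeal donor cells (-0.37, adjusted p = 0.00503). Host leptomeningeal macrophages exceeded host microglia by 0.26 ± 0.11 (adjusted p = 0.045). That call was lost when any of 9 of the 12 libraries was left out (0.21 to 0.26), namely all 4 host leptomeningeal libraries, mutant host microglia libraries 2 and 4 and control host microglia libraries 2, 3 and 4, and with library totals the value was 0.07. With the neutrophil covariate the change in donor against host leptomeningeal macrophages was -0.65 ± 0.30 (adjusted p = 0.316), and with astrocyte and neuron markers that in donor against host microglia was -0.68 ± 0.42 (adjusted p = 0.347). An antisense transcript on the other strand of Maf, Gm15655, had 51 UMIs over all libraries against 5053 for Maf, and whether the counting used strand is not given.

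Among the factors of the myeloid lineage, Irf8 encodes an interferon regulatory factor required for normal microglial maturation in mice, and lies on chromosome 8 (120736358 to 120756694, plus strand). Its lowest, median and highest levels were 238.7, 269.8 and 333.4 CPM in donor leptomeningeal macrophages, 400.1, 467.3 and 582.4 CPM in donor microglia and 727.2, 853.5 and 971.4 CPM in host microglia. In host leptomeningeal macrophages the levels were 355.4 and 321.3 CPM in mutant and 447.7 and 442.0 CPM in control chimeras. Host microglia lay above all other libraries, and donor microglia overlapped with host leptomeningeal macrophages. Irf8 changed by -0.63 ± 0.08 in donor against host microglia (adjusted p = 3.42e-09), by -0.57 ± 0.08 in leptomeningeal against parenchymal donor cells (adjusted p = 5.57e-08) and by -0.93 ± 0.10 in leptomeningeal against parenchymal host cells (adjusted p = 6.41e-11). The change of -0.26 ± 0.10 in donor against host leptomeningeal macrophages (adjusted p = 0.037) lost its call, at -0.27 to -0.21, without control donor leptomeningeal library 4, mutant host leptomeningeal library 1 or either control host leptomeningeal library. Donor microglia exceeded host leptomeningeal macrophages by 0.31 ± 0.10 (adjusted p = 0.0111), and this was 0.23 or 0.28 and not called without mutant host leptomeningeal library 2 or control host leptomeningeal library 1. With astrocyte and neuron markers as a covariate the change in donor against host microglia was -0.07 ± 0.29 (adjusted p = 0.934) and that in donor microglia against host leptomeningeal macrophages 0.84 ± 0.28 (adjusted p = 0.0548). With the neutrophil covariate that in donor against host leptomeningeal macrophages was -0.25 ± 0.24 (adjusted p = 0.741).

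Spi1 (chromosome 2, 91082390 to 91115756, plus strand) had its lowest level in donor microglia. The lowest, median and highest values were 732.2, 750.7 and 822.6 CPM in donor leptomeningeal macrophages, 420.3, 550.8 and 601.2 CPM in donor microglia and 834.2, 865.2 and 950.6 CPM in host microglia. Levels in host leptomeningeal macrophages were 852.4 and 766.7 CPM in mutant and 925.5 and 754.1 CPM in control chimeras. All donor microglia libraries were below all libraries of the other 3 populations. Spi1 changed by -0.60 ± 0.08 in donor against host microglia (adjusted p = 6.85e-09), by -0.68 ± 0.09 in donor microglia against host leptomeningeal macrophages (adjusted p = 5.45e-08), and by 0.80 ± 0.08 in leptomeningeal against parenchymal donor cells (adjusted p = 2.97e-12). Host leptomeningeal macrophages and host microglia (0.09 ± 0.09, adjusted p = 0.444) and donor and host leptomeningeal macrophages (0.12 ± 0.09, adjusted p = 0.368) did not differ past the threshold. Donor leptomeningeal macrophages against host microglia turned with the scaling: 0.21 ± 0.08 with TMM (adjusted p = 0.0136) and -0.21 with library totals (adjusted p = 0.0095). With astrocyte and neuron markers as a covariate no Spi1 call that involved donor microglia held. The change was 0.06 ± 0.27 in donor against host microglia (adjusted p = 0.936), -0.05 ± 0.27 in donor microglia against host leptomeningeal macrophages (adjusted p = 0.954) and 0.08 ± 0.30 in leptomeningeal against parenchymal donor cells (adjusted p = 0.926). The last was 0.55 ± 0.25 with the neutrophil covariate (adjusted p = 0.167). With TMM the call against host microglia was also lost, at 0.14, without mutant donor leptomeningeal library 3 or control donor leptomeningeal library 2.

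Runx1, a factor of definitive blood formation that is active in young microglia of mice, lies on chromosome 16 (92601466 to 92826149, minus strand). Its lowest, median and highest levels were 54.2, 72.2 and 73.8 CPM in donor leptomeningeal macrophages, 78.0, 97.8 and 128.3 CPM in donor microglia and 143.9, 164.2 and 166.7 CPM in host microglia. Host leptomeningeal macrophages had 83.3 and 80.7 CPM in mutant and 95.9 and 76.3 CPM in control chimeras. Host microglia lay above the rest, and donor microglia overlapped with host leptomeningeal macrophages. Runx1 changed by -0.52 ± 0.09 in donor against host microglia (adjusted p = 2.21e-06) and by -0.75 ± 0.11 in leptomeningeal against parenchymal host cells (adjusted p = 9.86e-08). The change in leptomeningeal against parenchymal donor cells was -0.26 ± 0.09 (adjusted p = 0.0139) and was -0.21 and not called without control donor microglia library 4. It was larger and also not called with either covariate. The values were -0.72 ± 0.30 with neutrophil markers (adjusted p = 0.115) and -0.84 ± 0.40 with astrocyte and neuron markers (adjusted p = 0.209). Donor and host leptomeningeal macrophages (-0.03 ± 0.11, adjusted p = 0.869) and donor microglia and host leptomeningeal macrophages (0.23 ± 0.12, adjusted p = 0.109) did not differ past the threshold, but the second was called without control donor microglia library 2 (0.30), with DESeq2's size factors (0.28, adjusted p = 0.0391), by DESeq2's Wald test (0.27, adjusted p = 0.0381) and with the neutrophil covariate (0.29, adjusted p = 0.0462). The change in donor against host microglia was, with astrocyte and neuron markers, 0.01 ± 0.36 (adjusted p = 0.996).

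Cebpb, a bZIP factor of inflammatory and emergency myeloid responses, was the only member highest in donor microglia. It lies on chromosome 2 (167688915 to 167690418, plus strand). Its lowest, median and highest levels were 129.3, 164.9 and 196.6 CPM in donor leptomeningeal macrophages, 210.9, 309.1 and 331.3 CPM in donor microglia and 208.1, 225.7 and 240.4 CPM in host microglia. Host leptomeningeal macrophages had 146.6 and 155.9 CPM in mutant and 131.5 and 132.1 CPM in control chimeras. Of the donor microglia, 7 libraries lay above all host microglia and 1, control library 2, lay inside their range. Cebpb rose by 0.57 ± 0.09 in donor against host microglia (adjusted p = 1.3e-07) and by 1.05 ± 0.11 in donor microglia against host leptomeningeal macrophages (adjusted p = 1.2e-10), and changed by -0.62 ± 0.09 in leptomeningeal against parenchymal donor cells (adjusted p = 2.26e-08) and by -0.48 ± 0.11 in leptomeningeal against parenchymal host cells (adjusted p = 0.000171). Donor against host leptomeningeal macrophages gave 0.43 ± 0.11 with TMM (adjusted p = 0.00146) and 0.20, not called, with library totals, and turned to -0.01 ± 0.25 with the neutrophil covariate. Donor leptomeningeal macrophages against host microglia gave -0.05 ± 0.08 with TMM (adjusted p = 0.579) and -0.47, past the threshold, with library totals. Tmem189 overlaps Cebpb on the other strand and had 4052 UMIs against 9284 for Cebpb. Without strand, reads in the overlap could not be told apart, and how many reads lie there was not examined.

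Whether donor and host cells differed to the same degree in both compartments was tested as the difference of the donor minus host changes, parenchyma minus leptomeninges. Of 9 members, 4 were lower and 1 higher, against 19.1% of all genes lower and 23.2% higher, or 42.2% called. The median of the members was -0.27 and that of all genes 0.05. For Spi1 the difference was -0.71 ± 0.12 (adjusted p = 5.89e-06), from -0.60 in parenchyma and 0.12 in leptomeninges. For Runx1 it was -0.49 ± 0.14 (adjusted p = 0.00484), and for Irf8 -0.37 ± 0.13 (adjusted p = 0.017). Irf8 was -0.29 and -0.34, and not called, without control donor leptomeningeal library 1 or mutant host leptomeningeal library 2. With DESeq2's size factors Irf8 was -0.29 and also not called (adjusted p = 0.0562, edgeR). With astrocyte and neuron markers as a covariate 0 members were called. Spi1 was then 0.03 ± 0.32, Runx1 0.12 ± 0.42 and Irf8 0.27 ± 0.34. With the neutrophil covariate Runx1 was -0.25 ± 0.20 (adjusted p = 0.442) and Irf8 -0.37 ± 0.185 (adjusted p = 0.153), both not called. Sall1 (-1.20 ± 0.535, adjusted p = 0.111, edgeR) and Maf (0.11 ± 0.23, adjusted p = 0.820, edgeR) were not called with it either. Sall1 (-1.07 ± 0.42, adjusted p = 0.0395) lost its call without any 1 of 11 of the 28 libraries (-1.03 to -0.68, the last without control donor leptomeningeal library 3), and at -0.99 with DESeq2's size factors, -1.01 with library totals and -0.88 by voom. Those 11 were mutant donor microglia libraries 1, 3 and 4, control donor microglia libraries 2 and 4, mutant donor leptomeningeal libraries 1 and 2, control donor leptomeningeal libraries 1 and 3, mutant host leptomeningeal library 2 and control host leptomeningeal library 2. Maf (0.38 ± 0.15, adjusted p = 0.0419) lost its call without any 1 of 16 of them, at 0.29 to 0.37. Those 16 were all 4 host leptomeningeal libraries, mutant donor microglia libraries 1 and 3, control donor microglia libraries 1, 3 and 4, mutant host microglia libraries 2 and 4, control host microglia libraries 2, 3 and 4, mutant donor leptomeningeal library 3 and control donor leptomeningeal library 2. Sall3, Mef2a, Mef2c and Cebpb did not pass the test, with values of -0.27 ± 0.73, 0.09 ± 0.18, 0.20 ± 0.20 and 0.14 ± 0.14.

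Donor leptomeningeal macrophages and host microglia lay farthest apart. Of 9 members, 7 were lower and 1 higher in donor leptomeningeal macrophages, against 32.8% and 39.5% of all genes (72.2% called), with a member median of -1.20 and a median of all genes of 0.11, which shifted by -0.41 with library totals. In unscaled CPM 9 of 9 members had no overlap, against 49.7% of all genes in either direction. All 9 were lower in donor leptomeningeal macrophages in unscaled CPM, although with TMM scaling Spi1 was called higher and Cebpb was not called. Sall1 was 101.9 times lower (log2 -6.67 ± 0.19, adjusted p = 6.76e-25) and Sall3 104.3 times lower (log2 -6.71 ± 0.22, adjusted p = 6.11e-29). The share of all calls that were higher was 54.6% with TMM and 36.8% with library totals. Between donor microglia and host leptomeningeal macrophages, 3 members were higher and 3 lower, against 24.2% and 21.6% of all genes (45.8% called), with a member median of -0.01, and 3 did not overlap, against 21.9%.

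Mutant and control marrow were compared within each population to ask whether the marrow genotype moved these factors. By edgeR, 0 of 9 members passed the threshold in donor leptomeningeal macrophages, donor microglia, host leptomeningeal macrophages or host microglia, against 0.0487%, 0.0892%, 0% and 0.0649% of all genes in the same order. Unadjusted p-values were under 0.05 for Sall3, Mef2a and Irf8 in donor microglia and for Sall1 and Irf8 in host leptomeningeal macrophages, and for no member in the other populations. Over all genes, 597, 1253, 666 and 463 had an unadjusted p under 0.05 in the same order. The median log2 change of the members was 0.09, -0.22, -0.06 and -0.10, against -0.03, 0.00, 0.02 and 0.02 for all genes. DESeq2's Wald test called 1 member, Sall1, in host leptomeningeal macrophages and 0 in each other population.

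**Figure D4:**
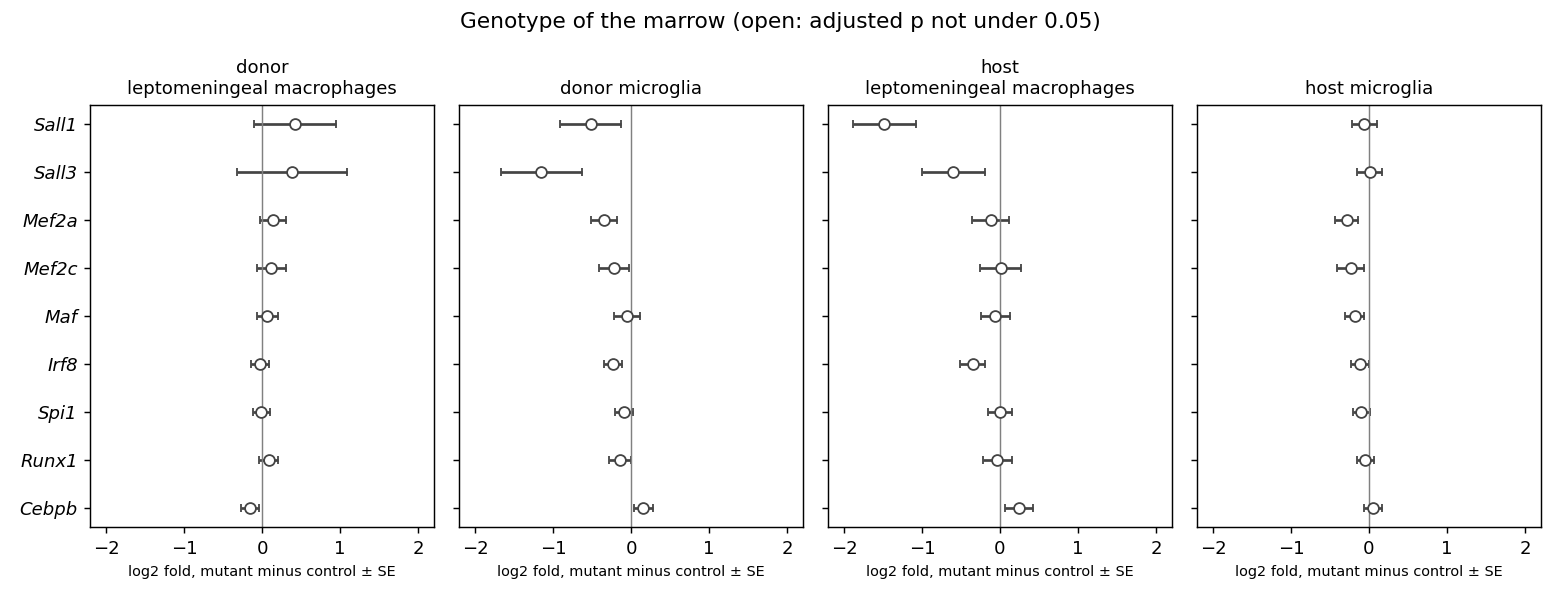
Log2 fold ± SE of mutant minus control for each factor in each of 4 populations, all drawn open because no adjusted p was under 0.05. The point farthest from 0 is Sall1 in host leptomeningeal macrophages at -1.48 ± 0.40.

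Sall1 in host leptomeningeal macrophages had 18.1 and 11.5 CPM in mutant libraries (18 and 17 UMIs) and 49.9 and 30.8 CPM in control libraries (63 and 27 UMIs). The groups did not overlap, as was so for 33.9% of all genes with 2 libraries per side. The log2 change was -1.48 ± 0.40 with an adjusted p of 0.297 by edgeR, -1.51 ± 0.32 with an adjusted p of 0.00362 by DESeq2, and -1.51 ± 0.33 with an adjusted p of 0.0302 when those 4 libraries were fitted alone. Microglial markers moved with it, at 0.656% and 0.620% of UMIs in mutant and 1.10% and 0.820% in control libraries, and border macrophage markers at 1.24% and 1.36% in mutant and 0.982% and 1.16% in control libraries. Microglial markers were lower and border macrophage markers higher in both mutant libraries than in both control libraries, and their part in the result was not tested. In host microglia Sall1 had 360.8, 321.4, 298.3 and 316.3 CPM in mutant and 324.7, 341.2, 361.3 and 354.1 CPM in control chimeras, which overlapped (log2 -0.06 ± 0.16, adjusted p = 1). The difference between the genotype effects of host leptomeningeal macrophages and host microglia was -1.42 ± 0.43 (adjusted p = 0.745 by edgeR, 0.022 by DESeq2).

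In donor microglia, the parenchymal cells of the marrow genotype, Sall1 had 11.8, 21.3, 11.9 and 8.21 CPM in mutant and 33.4, 11.6, 21.3 and 17.3 CPM in control libraries. Sall3 had 6, 6, 2 and 1 UMIs in mutant and 10, 3, 5 and 5 UMIs in control libraries. Both overlapped between genotypes, with changes of -0.52 ± 0.39 (adjusted p = 0.681) and -1.15 ± 0.52 (adjusted p = 0.442). Irf8 had 458.8, 431.0, 475.9 and 400.1 CPM in mutant and 582.4, 417.4, 538.0 and 567.0 CPM in control libraries, with a change of -0.24 ± 0.12 (adjusted p = 0.487), and 3 of 4 control libraries lay above all mutant ones. Mef2a had 165.7, 185.6, 143.1 and 256.5 CPM in mutant and 292.2, 170.4, 262.4 and 225.4 CPM in control libraries, which overlapped (-0.34 ± 0.17, adjusted p = 0.487). Astrocyte markers differed among these libraries, at 0.167%, 0.237%, 0.291% and 0.183% of UMIs in mutant and 0.0645%, 0.332%, 0.0666% and 0.106% in control libraries, and neutrophil markers at 0.141%, 0.124%, 0.187% and 0.111% in mutant and 0.142%, 0.259%, 0.810% and 0.988% in control libraries. Their part in the values was not tested.

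Libraries of the genotypes did not overlap in CPM for 0 of 9 members in donor leptomeningeal macrophages (3.62% of all genes), 0 in donor microglia (3.53%), 5 in host leptomeningeal macrophages (33.9%) and 1 in host microglia (3.39%). The 5 were Sall1, Sall3, Maf and Irf8, lower in mutant chimeras, and Cebpb, higher, and Sall3 and Maf overlapped after TMM scaling (-0.60 ± 0.41, adjusted p = 0.959, and -0.06 ± 0.19, adjusted p = 1). Spi1 in host microglia was 834.2, 854.1, 837.1 and 842.6 CPM in mutant and 919.9, 947.2, 876.4 and 950.6 CPM in control chimeras, with no overlap in CPM but with overlap after TMM scaling (-0.10 ± 0.11, adjusted p = 1). Irf8 in host leptomeningeal macrophages was lower in both mutant libraries than in both control libraries (-0.35 ± 0.16, adjusted p = 0.874), and Cebpb was higher in both (0.25 ± 0.18, adjusted p = 0.964). In donor leptomeningeal macrophages Irf8 was 269.7, 267.8, 274.5 and 269.8 CPM in mutant and 333.4, 248.8, 298.2 and 238.7 CPM in control libraries. The genotype effects were also compared between populations: donor minus host microglia, leptomeningeal minus parenchymal donor cells and leptomeningeal minus parenchymal host cells each had 0 of 9 members called by edgeR, against 0.0324%, 0% and 0% of all genes, of which 745, 787 and 604 had an unadjusted p under 0.05.

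Relatives of the members were followed in 9 lists of 84 factors in the table, of which 83 were tested. In donor against host microglia 27 of the 83 were higher and 35 lower, with a median log2 change of -0.24, against 33.1% of all genes higher and 27.3% lower, with a median of 0.04. The SMAD and SKI list, the intracellular arm of TGF-beta signalling, had 6 of 8 lower and 0 higher, with a median of -0.68. Smad3, a transducer of the signal, averaged 22.1 ± 6.96 CPM in donor and 108.1 ± 10.9 CPM in host microglia (SD, n = 8 each) and changed by -2.11 ± 0.14 (adjusted p = 2.46e-17), and Smad7, an inhibitor induced by the pathway, by -0.96 ± 0.12 (adjusted p = 1.59e-09). The ETS list had 9 of 13 lower and 2 higher, led by Ets1 at 24.0 ± 5.93 CPM in donor and 89.7 ± 8.93 CPM in host microglia (-1.74 ± 0.15, adjusted p = 1.18e-13). Mef2d, a further MEF2 gene, averaged 97.8 ± 12.1 CPM in donor and 198.4 ± 14.2 CPM in host microglia and changed by -0.84 ± 0.09 (adjusted p = 1.86e-11).

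Other relatives went the opposite way in donor microglia. Runx3, a RUNX factor of lymphoid and some myeloid cells, averaged 47.0 ± 7.47 CPM in donor and 3.02 ± 1.21 CPM in host microglia, 17.6 times higher (log2 4.14 ± 0.18, adjusted p = 7e-24). Irf7, an interferon-induced factor, averaged 95.9 ± 33.5 CPM in donor and 27.6 ± 6.34 CPM in host microglia (1.95 ± 0.24, adjusted p = 3.7e-07). The mixed list of other macrophage factors had 15 of 28 higher and 5 lower, with a median of 0.65. Within it Ahr, the aryl hydrocarbon receptor, averaged 20.0 ± 6.48 CPM in donor and 0.791 ± 0.720 CPM in host microglia, and Id3, a dominant-negative helix-loop-helix factor, 58.9 ± 18.9 and 2.25 ± 0.952 CPM, with changes of 5.09 ± 0.35 (adjusted p = 4.15e-17) and 4.87 ± 0.25 (adjusted p = 1.27e-19). Astrocyte markers took 0.0645% to 0.332% of UMIs in donor and at most 0.0201% in host microglia. Their part in the changes of these relatives was not tested. The IRF list was split with 3 of 9 higher and 3 lower, RUNX and cofactors with 3 of 10 higher and 5 lower, C/EBP with 2 of 6 higher and 3 lower, and large and small MAF with 2 of 7 higher and 3 lower.

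In donor against host leptomeningeal macrophages 18 of the 83 relatives were higher and 15 lower, with a median of 0.12, against 16.9% of all genes higher and 13.3% lower, with a median of 0.01. Runx3 was again higher, at 54.4 ± 6.23 CPM in donor (n = 8) and 26.3 ± 4.56 CPM in host cells (n = 4), with a change of 1.29 ± 0.16 (adjusted p = 9.92e-09), and Tal1, a helix-loop-helix blood factor, was lower, at 5.55 ± 1.26 and 27.2 ± 2.54 CPM (-2.06 ± 0.21, adjusted p = 3.61e-11). Cebpe, a factor of granulocyte maturation, averaged 229.1 ± 85.7 CPM in donor and 13.8 ± 9.91 CPM in host leptomeningeal macrophages (4.18 ± 0.41, adjusted p = 4.39e-08), beside neutrophil markers at 3.69% to 9.79% of UMIs in donor and 0.201% to 0.603% in host cells, whose part was not tested. The IRF list had 3 of 9 higher and 0 lower, ETS 3 of 13 higher and 2 lower, RUNX and cofactors 3 of 10 higher and 4 lower, C/EBP 1 of 6 each way, large and small MAF 0 of 7 higher and 2 lower, and SMAD and SKI 0 of 8 higher and 2 lower.

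**Figure D5:**
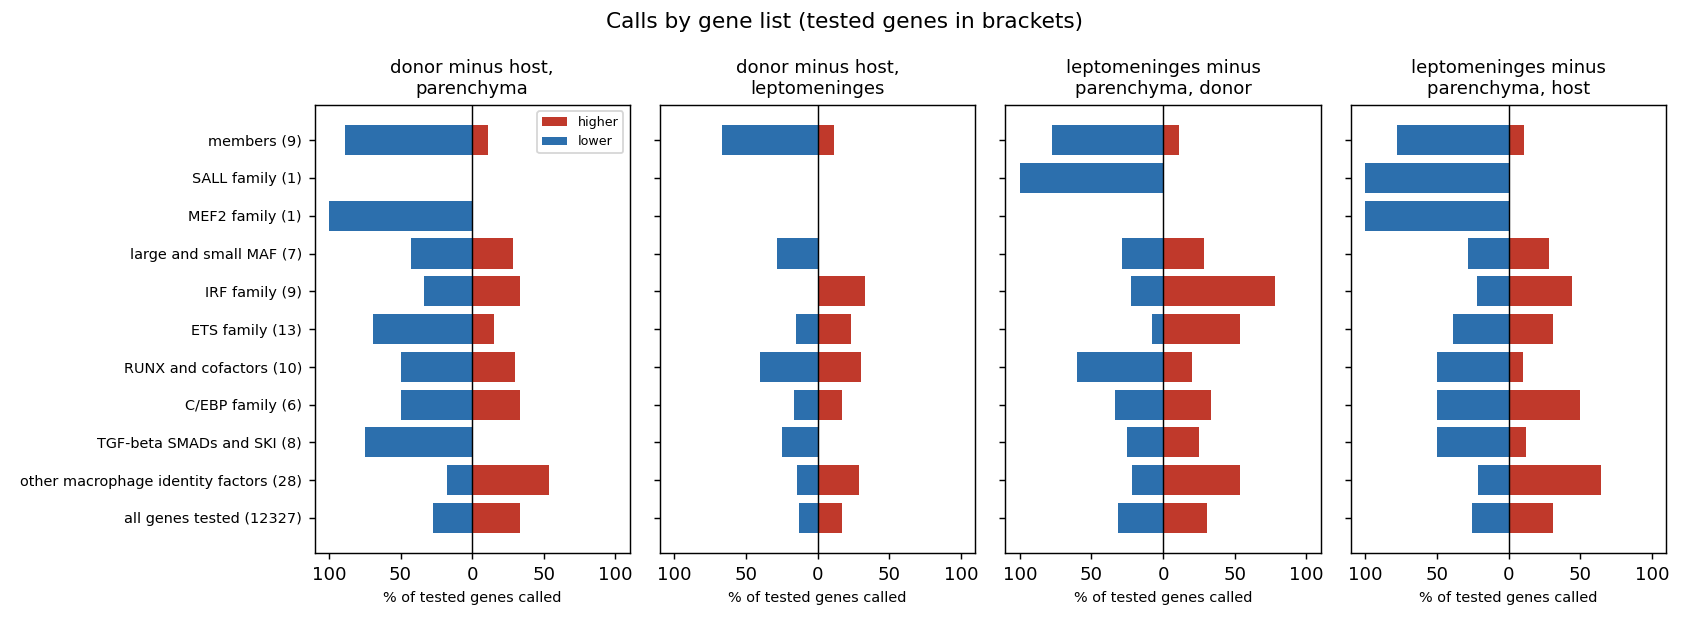
Percentage of tested genes called higher (red, right) or lower (blue, left) at an adjusted p under 0.05 for the members, 9 lists of related factors and all genes, in 4 comparisons of populations. In donor minus host parenchyma the SMAD and SKI list has 6 of 8 genes lower and 0 higher, and the mixed list of macrophage factors 15 of 28 higher.

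Between leptomeninges and parenchyma, Smad7 was lower and Klf4 higher in cells of both origins. Smad7 averaged 11.8 ± 3.10 CPM in leptomeningeal and 43.1 ± 9.56 CPM in parenchymal donor cells (-1.63 ± 0.14, adjusted p = 1.91e-13), and 16.5 ± 3.50 CPM in leptomeningeal and 93.6 ± 6.78 CPM in parenchymal host cells (-2.33 ± 0.17, adjusted p = 1.96e-16). Klf4, a zinc-finger factor of monocyte differentiation, averaged 172.0 ± 20.1 CPM in leptomeningeal and 43.6 ± 5.15 CPM in parenchymal donor cells (2.23 ± 0.10, adjusted p = 1.58e-23), and 194.1 ± 29.0 and 21.1 ± 1.99 CPM in host cells (3.36 ± 0.11, adjusted p = 1.7e-29). Of the 83 relatives, 37 were higher and 22 lower in donor cells (median 0.14), against 30.5% of all genes higher and 31.6% lower, and 33 were higher and 29 lower in host cells (median -0.01), against 31.1% and 25.7%. The IRF list had 7 of 9 higher and 2 lower in donor cells and 4 higher and 2 lower in host cells, and ETS had 7 of 13 higher and 1 lower in donor cells and 4 higher and 5 lower in host cells. Neutrophil markers took 3.69% to 9.79% of UMIs in leptomeningeal and 0.111% to 0.988% in parenchymal donor cells. Monocyte markers took 0.244% to 0.517% and 0.01115% to 0.0614%, and astrocyte markers 0.0115% to 0.0174% and 0.0645% to 0.332%. Their part in the changes of these relatives was not tested. Sall2, the other SALL gene in the table, changed by -1.62 ± 0.37 in host cells (adjusted p = 0.000199).

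By genotype, 1 of the 83 relatives passed in donor microglia, against 0.0892% of all genes, and 1 in host microglia, against 0.0649%. These were Id2, another helix-loop-helix inhibitor, at 0.60 ± 0.13 (adjusted p = 0.0289, edgeR), and Klf2, a zinc-finger factor, at 0.70 ± 0.15 (adjusted p = 0.0377, edgeR). Both were higher in mutant chimeras. Astrocyte markers had a median of 0.210% of UMIs in mutant and 0.0865% in control donor microglia, the highest library being control library 2 at 0.332%. Their part in the Id2 change was not tested. Genes called by genotype there were 11, but 4 with the astrocyte and neuron covariate and 3 to 544 with 1 library left out. Whether Id2 kept its call in those fits was not examined. The Klf2 call was lost when the host microglia groups were fitted alone. It was also lost without any 1 of mutant host microglia libraries 2, 3 and 4 or control libraries 1 and 2. None passed in the leptomeningeal populations by edgeR.

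Genes whose level over the 8 groups was most like a member's were ranked among 6342 genes by Pearson's r of mean log2 CPM, as a description, since the group means share libraries and scaling. Mdfi, Rptor and Mlxipl were most like Sall1 (r = 0.9985, 0.9967 and 0.9965), and Camk1, Mlph and Pacc1 most like Sall3 (0.9970, 0.9969 and 0.9966). For Mef2a these were E230029C05Rik, Ilvbl and Gtf2h2 (0.9897 to 0.9893), for Mef2c Dalrd3, Lmo2 and Dpy19l4 (0.9951 to 0.9916), and for Maf Mcfd2, Gpr137b and Ghdc (0.9940 to 0.9769). Irf8 was followed by Pik3r1, Apbb2 and Mfng (0.9974 to 0.9944), Spi1 by Alox5, Il17ra and Limd2 (0.9977 to 0.9919), Runx1 by Nit1, Gpsm1 and Rasal3 (0.9905 to 0.9897), and Cebpb by Atp5g3, Lsm12 and Echs1 (0.9797 to 0.9629). Taking the highest 3 of 6342 values over 8 means itself favours r near 1. Over the 28 libraries r was lower for each pair, from 0.982 (Mlxipl with Sall1) to 0.648 (Lsm12 with Cebpb). Among the members themselves, over the same 8 group means, r was 0.98 for Sall1 with Sall3, 0.96 for Mef2a with Irf8 and for Irf8 with Runx1, and -0.82 for Spi1 with Cebpb.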

How the data were processed

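MARS-seq UMI counts per gene were used as the authors deposited them, in a single table with raw, normalized and rlog columns per the file headers. Only the raw count columns were used. Another 56 columns of the same libraries, normalized or rlog values, were not used, and 193 columns were empty. The submitters' processing notes name mm10 as the build. No source used here names an aligner. Samples were grouped by GEO's labels. The members and lists were chosen with earlier results of these data known.

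Counts of all 28 libraries entered 1 fit in edgeR 4.0.16 (R 4.3.3) with filterByExpr, TMM scaling, a mean per group and the robust quasi-likelihood test, over 14 contrasts, each adjusted by Benjamini-Hochberg over all genes at 0.05. Populations were averaged over genotypes, and SE is the log2 change over the root of F. Every member was named, and relatives called were ranked by p within a list, up to 4 of at least 10 CPM being eligible. Likeness used log2 CPM with a prior count of 2 in genes of at least 20 CPM. The scripts were tested on simulated data.

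The labels do not say whether replicate numbers pair libraries of an animal, and the main fit used no pairing. Deviations from group means correlated at -0.182 to 0.125 between same-numbered libraries of the groups compared, with 1 value over 0.1. Such correlations cannot show whether libraries shared an animal. Alternatives were DESeq2 1.42.0's size factors and Wald test, no filter, limma 3.58.1's voom with quality weights, groups fitted alone, a replicate block, astrocyte and neuron or neutrophil markers as a covariate, and each library left out. A further one left out control donor microglia library 1 and mutant donor microglia library 4. Scaling by library totals was added after seeing the data. A count of 0 is compatible with up to 3 UMIs, counting error only.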

Additional observations from a re-analysis of the deposited data

Results flagged for a closer look

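In 54 tests of a gene within a group of 4 libraries, 4 libraries stood apart by Dixon's ratio of gap to range, and chance gives such a ratio in about 1 in 20 groups. Mef2c in mutant donor leptomeningeal library 3 was 81.7 CPM against 109.7 to 111.1 CPM in the other libraries of its group (ratio 0.954). Irf8 in control host microglia library 3 was 971.4 CPM against 844.3 to 865.5 CPM (0.833). Runx1 in control donor leptomeningeal library 3 was 54.2 CPM against 71.8 to 73.8 CPM (0.898). Cebpb in mutant donor microglia library 4 was 266.7 CPM against 319.9 to 326.4 CPM (0.891).

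In the main fit, the donor minus host change differed between parenchyma and leptomeninges, as tested by the interaction, for Sall1 (-1.07), Maf (0.38), Irf8 (-0.37), Spi1 (-0.71) and Runx1 (-0.49), each given with its error above. The Sall1, Maf and Irf8 calls were lost without any 1 of 11, 16 and 2 of the 28 libraries. With astrocyte and neuron markers as a covariate 0 members were called, and with neutrophil markers 1.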

How the results depend on the processing

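Limits are 2 libraries per genotype in host leptomeningeal macrophages and 0 to 20 UMIs of Sall1 and Sall3 per library in the donor populations. Of single member results, 1189 kept their side of the threshold under alternatives other than leaving out 1 library. Another 45 lost and 9 gained a call. A further 12, called before or after, changed direction. With 1 library left out, 1606 kept their side, 48 lost and 2 gained a call, and 0 called results changed direction. The kept results of both sets include 113 changes of direction in members called on neither side.

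Members called by genotype were 1 in host leptomeningeal macrophages, and 1 in its difference from host microglia, by DESeq2's Wald test and by groups fitted alone. With astrocyte and neuron markers as a covariate, members called were 1 (donor minus host microglia), 5 (leptomeningeal minus parenchymal donor cells), 2 (donor microglia minus host leptomeningeal macrophages) and 0 (difference between compartments), and genes called 1364, 962, 901 and 597. With neutrophil markers they were 2 (donor minus host leptomeningeal macrophages), 2 (leptomeningeal minus parenchymal donor cells), 5 (donor leptomeningeal macrophages minus host microglia) and 1 (difference between compartments), and genes called 287, 1235, 2207 and 2709. DESeq2's size factors gave 3 members for that difference.

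Under the astrocyte and neuron covariate donor minus host microglia turned to 0.59 for Mef2a, 0.063 for Spi1 and 0.014 for Runx1, donor microglia minus host leptomeningeal macrophages to 1.16 for Sall3, and the difference between compartments to 1.14 for Sall1, 0.27 for Irf8, 0.033 for Spi1 and 0.12 for Runx1. Under the neutrophil covariate donor minus host leptomeningeal macrophages turned to -0.012 for Cebpb, leptomeningeal minus parenchymal donor cells to 0.029 for Mef2c, and donor leptomeningeal macrophages minus host microglia to -0.13 for Spi1, which library totals turned to -0.21. The cause was not tested.

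Genes called by genotype in donor microglia (11) were 17 without the filter, 81 by DESeq2, 124 by voom, 4 by groups fitted alone, 6 without the 2 donor microglia libraries named above and 4 with the astrocyte and neuron covariate. In host microglia (8) they were 15, 5 and 0 by DESeq2, voom and groups alone and 3 without both libraries. In donor leptomeningeal macrophages (6) voom called 11. In host leptomeningeal macrophages (0) they were 3 with DESeq2's size factors, 2 without the filter, 6 with library totals, 25 by DESeq2, 17 by groups alone, 4 with the replicate block, 2 without both libraries, 2 with the neutrophil and 4 with the astrocyte and neuron covariate. Differences of genotype effects gave 14 genes by DESeq2 and 2 without both libraries (donor minus host microglia, 4), 2 by DESeq2, 1 by voom, 1 with the replicate block and 2 with the astrocyte and neuron covariate (leptomeningeal minus parenchymal donor cells, 0), and 10 by DESeq2 and 6 by groups alone (leptomeningeal minus parenchymal host cells, 0).

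With 1 library left out, members called ranged from 9 to 9 (donor minus host microglia), 5 to 7 (donor minus host leptomeningeal macrophages), 7 to 8 (leptomeningeal minus parenchymal donor cells, and host cells), 5 to 7 (donor microglia minus host leptomeningeal macrophages), 7 to 8 (donor leptomeningeal macrophages minus host microglia) and 2 to 5 (difference between compartments), and 0 to 0 by genotype. Genes called by genotype ranged from 3 to 544 in donor microglia (3, 544 and 6 without control libraries 1, 2 and 4, and 7, 7 and 18 without mutant libraries 2, 3 and 4), 0 to 11 in host microglia, 4 to 7 in donor and 1 to 5 in host leptomeningeal macrophages, and for the differences of genotype effects from 2 to 74, 0 to 149 and 0 to 3, of which 74 and 149 were without control donor microglia library 2 and 3 without mutant host leptomeningeal library 1. In host microglia 0 genes were called without any 1 of mutant libraries 2, 3 and 4 and control libraries 1 and 2, and 3 without control library 4. In host leptomeningeal macrophages 5 and 1 were called without mutant libraries 1 and 2, and 2 and 4 without control libraries 1 and 2. Of members, 2 were called for the difference between compartments without mutant host leptomeningeal library 2, and 3 without mutant donor microglia library 1 or 3, control donor microglia library 4, control donor leptomeningeal library 1 or control host leptomeningeal library 2.

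The replicate block called 9 members in donor minus host microglia, 7 in donor minus host leptomeningeal macrophages, 8 in leptomeningeal minus parenchymal donor cells, 7 in host cells, 4 in the difference between compartments and 0 by genotype, the numbers being shared labels and no known pairing.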
